A study of Gallus gallus with 24 samples.

Results

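The insulin and IGF signalling genes measured in chick retina were the growth factors IGF1 and IGF2, their receptors IGF1R and INSR, the adaptor IRS1, and the binding proteins IGFBP2, IGFBP3 and IGFBP5. These 8 genes were chosen by name. Of them, 7 had at least 1 probe set on the array, out of 13009 genes with a probe set of their own, and 6 were bright enough to be tested. IRS1 was not analysed here, and IGF2 was measured but too dim for a test. Retina was dissected together with its pigment epithelium from white Leghorn chicks that had worn a translucent white goggle over 1 eye from the age of 1 week, and each eye was hybridised to its own Affymetrix Chicken Genome array. The goggle blurs the image, and in chicks such form deprivation leads to myopia, an eye that grows too long for its optics.

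The 24 arrays fell into 4 groups of 6: eyes goggled for 3 d, the open fellow eyes of chicks goggled for 3 d, eyes goggled for 6 h, and the open fellow eyes of chicks goggled for 6 h. All 12 chicks wore a goggle, so every open eye came from a goggled animal and no untreated chick entered a comparison. A chick gave values at 1 time only, and the chicks of the 3 d groups were older when the tissue was taken, so goggle time and age cannot be told apart in any comparison of 3 d with 6 h. Goggles were put on when the lights came on, on the left or right eye in turn, in chicks kept in light and dark of equal length. The time of day at collection may therefore also differ between 3 d and 6 h, and it could not be told apart from goggle time and age. The labels gave neither the sex of the chicks nor any dissection, labelling or scan batch.

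Insulin and the IGFs are secreted hormones that bind the tyrosine kinase receptors INSR and IGF1R. The activated receptors phosphorylate adaptors such as IRS1 and IRS2, which pass the signal to PI3K and AKT and to the growth regulator mTOR, while the binding proteins carry IGFs outside the cell and set how much reaches a receptor. In the chick, insulin placed in the eye is known to enhance eye growth, and the retina makes IGF receptors of its own.

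Values are signals, the deposited linear intensity of a probe set. Differences are of log2(signal + 16), which understates the change of dim probe sets, and each carries the standard error (SE) or 95% interval of a limma fit to all 24 arrays. A difference was called where its p, adjusted with Benjamini-Hochberg over 26913 probe sets, was under 0.05. The background was set by 57 reporter probe sets that match no chicken gene, with a 95th percentile of 22.8. For a gene with several probe sets the one of highest mean signal is given first. Signals of different probe sets are not on a common scale, so levels are compared between eyes and not between genes.

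The arrays correlated with each other at 0.945 to 0.985. The ratio of the 3' to the 5' actin control probe set, a mark of RNA integrity, ran from 2.40 to 5.05 (median 3.59). It was lowest on replicate 3 of the open eyes at 6 h. Its part in differences between probe sets of the same gene was not tested. Of the retinal marker genes on the array, 5 of 5 for photoreceptors, 7 of 7 for amacrine and horizontal cells, 3 of 3 for bipolar cells, 5 of 5 for ganglion cells and 6 of 6 for Müller glia had a mean signal above background, as had 11 of 12 markers of pigment epithelium and melanin. The mean log2 value of 20 markers of stroma (choroid, sclera and vessel), 15 of them above background, set 8 arrays apart, at 6.198 to 7.74 against 5.41 to 5.74 on the other 16. They were 1 eye goggled for 3 d, 2 open eyes at 3 d, 3 eyes goggled for 6 h and 2 open eyes at 6 h. Results that rest on these arrays are given below with and without them. Of 6 striated muscle markers, 3 were above background, and their mean reached 7.81 on an array of the eyes goggled for 6 h.

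The ligand IGF1 was above background on all 24 arrays. Its signal in eyes goggled for 3 d was 30.8 at the lowest, 41.6 at the median and 56.6 at the highest, against 28.8, 49.0 and 57.0 in their open fellow eyes. In eyes goggled for 6 h it was 51.5, 57.7 and 65.8, against 44.2, 62.5 and 122.1 in the open eyes. The ranges of goggled and open eyes overlapped at both times, and 1 open eye at 6 h (replicate 3) stood well above the other 5, which reached 73.5. IGF1 differed between goggled and open eyes by -0.13 (SE 0.16) on the log2 scale at 3 d and by -0.13 (SE 0.16) at 6 h, with adjusted p of 0.979 and 0.99996 in limma. Eyes that carried the same number within a time were treated as a pair from 1 animal, and by chick IGF1 was lower in the goggled eye in 5 of 6 at 3 d and in 3 of 6 at 6 h. Because the tissue was measured in bulk, fewer cells of a type and less RNA per cell cannot be told apart here or in any result that follows.

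IGF1 was lower at 3 d than at 6 h in the means of both kinds of eye, without passing the threshold. The signal averaged 41.7 ± 9.17 at 3 d against 58.1 ± 6.76 at 6 h in goggled eyes, and 47.3 ± 9.97 at 3 d against 68.5 ± 28.9 at 6 h in open eyes (SD, n = 6 each). The difference was -0.37 (SE 0.16) on the log2 scale in both kinds of eye, with an unadjusted p of 0.0292 and an adjusted p of 0.126 in goggled eyes and of 0.0283 and 0.159 in open eyes (limma). In a fit to the goggled eyes alone the adjusted p was 0.0447, past the threshold. After quantile normalization the difference was -0.19 (adjusted p = 0.511) in goggled and -0.26 (adjusted p = 0.378) in open eyes. In open eyes it was -0.22 without the bright open eye at 6 h.

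IGF2, the second IGF ligand, stayed at the level of background. Its 3 probe sets had mean signals of 11.3, 9.43 and 8.72 over the 24 arrays, all under 22.8, and the brightest of them exceeded that level on 2 arrays. That probe set ranged from 2.3 to 21.2 in eyes goggled for 3 d and from 1.7 to 31.7 in their open fellows, and from 2.9 to 16.0 in eyes goggled for 6 h and from 2.6 to 27.4 in their open fellows. The 2 arrays above background were both of open eyes. No fold change is given, since both sides of each comparison lay mostly under the background level.

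**Figure D1:**
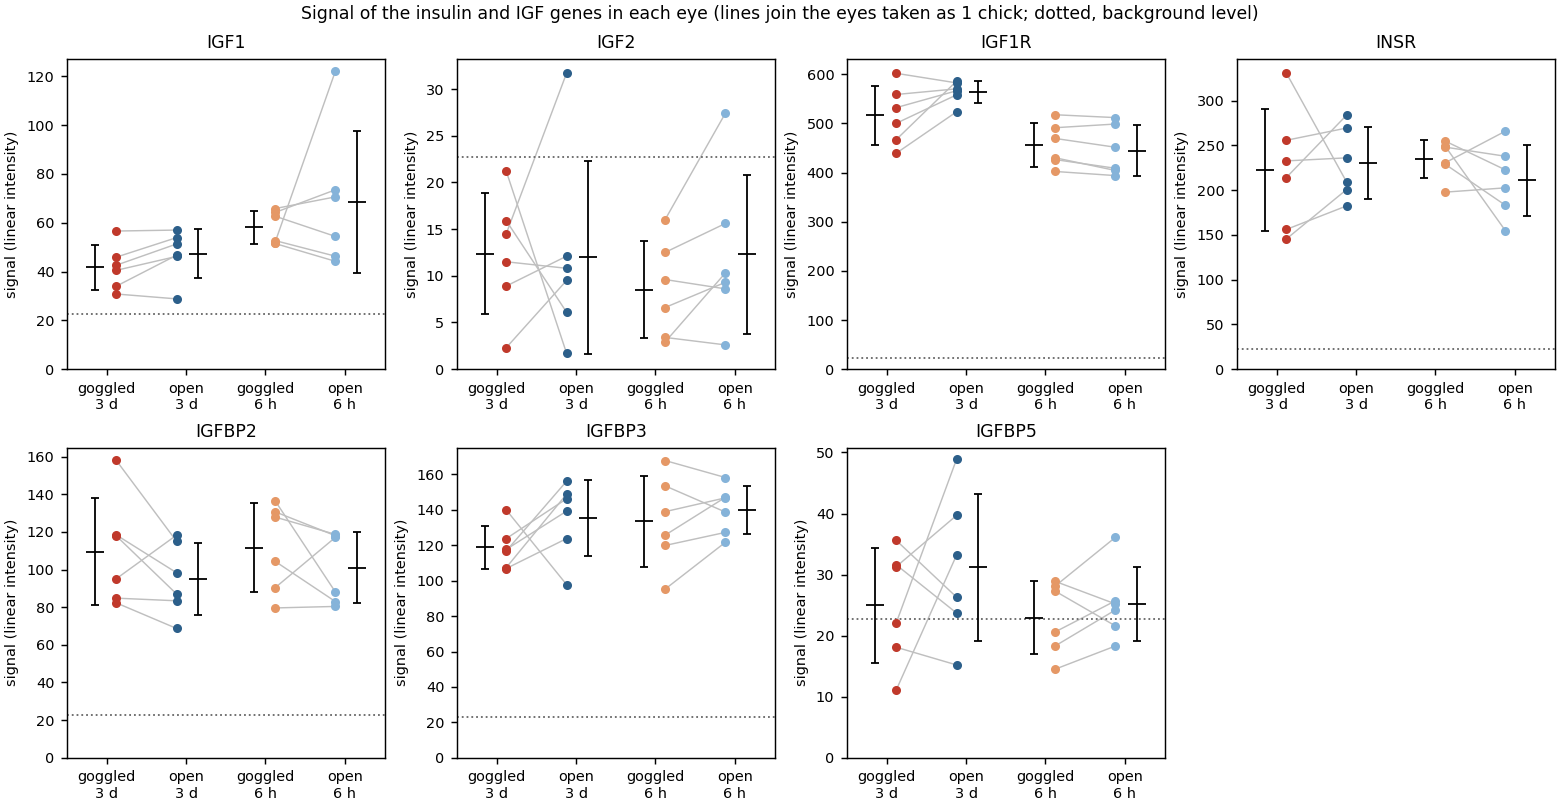
Signal (linear intensity, vertical axis) of each measured insulin and IGF gene in each eye, for the groups goggled 3 d, open 3 d, goggled 6 h and open 6 h; points are arrays, grey lines join the eyes taken as 1 chick, bars are mean ± SD (n = 6) and the dotted line is the background level of 22.8. Goggled and open eyes overlap for every gene at both times, IGF2 lies almost wholly under the line, and IGF1R is higher in the open eyes at 3 d (523.7 to 586.2) than in all open eyes at 6 h (393.9 to 511.9).

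IGF1R, the receptor with the highest affinity for IGF1, was above background on all 24 arrays. In goggled eyes its signal at 3 d was 439.4 at the lowest, 516.2 at the median and 602.0 at the highest, against 523.7, 568.5 and 586.2 in open eyes. At 6 h it was 402.3, 449.9 and 517.7 in goggled eyes, against 393.9, 430.2 and 511.9 in open eyes. The open eyes at 3 d lay close together (SD 22.5), and 3 of the 6 goggled eyes were below the lowest of them. Goggled and open eyes differed by -0.13 (95% interval -0.31 to 0.05, adjusted p = 0.923) at 3 d and by 0.04 (-0.14 to 0.22, adjusted p = 0.99996) at 6 h on the log2 scale (limma). At 3 d IGF1R was lower in the goggled eye of 5 of 6 chicks. At 6 h the eyes of a chick differed by -0.02 to 0.09 on the log2 scale, while the chicks themselves ranged over the 393.9 to 517.7 just given.

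IGF1R was higher in open eyes at 3 d than in open eyes at 6 h, and it was the only one of the 6 tested genes whose brightest probe set passed the threshold in any comparison. The signal averaged 564.6 ± 22.5 at 3 d and 444.9 ± 51.0 at 6 h (SD, n = 6 each), a log2 difference of 0.34 (SE 0.09, 95% interval 0.16 to 0.52, 1.27-fold, limma adjusted p = 0.0204), and the groups did not overlap. Of all probe sets tested, 7.34% passed the threshold in this comparison, 2.62% were called higher at 3 d, and the groups did not overlap for 3.42%. In goggled eyes the difference was 0.17 (SE 0.09, adjusted p = 0.203), with averages of 516.7 ± 60.0 at 3 d and 456.2 ± 43.9 at 6 h. The goggle effect at 3 d minus that at 6 h, which equals the time effect in goggled minus that in open eyes, was -0.17 (95% interval -0.43 to 0.09) and did not pass.

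The IGF1R call was close to the threshold. It was lost in a fit to the open eyes alone (adjusted p = 0.0590), without 1 open eye at 6 h (replicate 6, log2 difference 0.31, adjusted p = 0.0524) and without the 8 arrays high in stroma markers (0.27, adjusted p = 0.257 with 16 arrays). Without those 8 arrays 197 of all probe sets passed in open eyes, against 1975 with them. The IGF1R call was kept with the stroma mean as a covariate (0.34, limma adjusted p = 0.0218). It was also kept after quantile normalization (0.32, adjusted p = 0.0292) and median centring (0.42, adjusted p = 0.00672). The mean log2 value of the photoreceptor markers was 9.90 ± 0.19 in open eyes at 3 d and 9.62 ± 0.20 in open eyes at 6 h. All 5 markers were above background, and the range was 9.56 to 10.15 at 3 d and 9.39 to 9.96 at 6 h. In goggled eyes, where IGF1R did not pass, this mean was 9.72 ± 0.25 at 3 d and 9.51 ± 0.17 at 6 h. In open eyes the means of the 6 Müller glia markers were 10.79 ± 0.09 and 10.65 ± 0.10. Those of amacrine and horizontal markers were 10.51 ± 0.20 and 10.38 ± 0.09, of bipolar markers 10.90 ± 0.13 and 10.90 ± 0.15, and of ganglion markers 10.52 ± 0.16 and 10.51 ± 0.09. The part of these cell types in the IGF1R difference was not tested.

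INSR, the insulin receptor, gave different answers by probe set. The brightest was above background on all 24 arrays. It read 145.3, 223.2 and 330.9 (lowest, median and highest) in eyes goggled for 3 d, against 182.3, 222.6 and 283.7 in their open fellows. In eyes goggled for 6 h it read 197.7, 239.2 and 254.8, against 154.7, 212.6 and 265.8 in open eyes. The spread was widest in the eyes goggled for 3 d, which held both the lowest and the highest value of all 24 arrays, and the highest belonged to the eye with the highest stroma marker mean (7.74). The goggled minus open difference was -0.08 (SE 0.16) at 3 d and 0.16 (SE 0.16) at 6 h, with adjusted p of 0.993 and 0.99996 in limma, and the goggled eye was the lower in 5 of 6 chicks at 3 d and the higher in 4 of 6 at 6 h. The next brightest INSR probe set differed by -0.15 at 3 d and 0.18 at 6 h, and the one after it by -0.13 and -0.15, none called.

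Between the times, the brightest INSR probe set differed by -0.12 (SE 0.16) in goggled eyes and by 0.12 (SE 0.16) in open eyes. A second INSR probe set fell to 38.6 ± 14.6 in eyes goggled for 3 d, against 65.6 ± 12.9 in eyes goggled for 6 h, a log2 difference of -0.61 (SE 0.17, limma adjusted p = 0.0193). In this comparison 12.7% of all probe sets passed. In open eyes the second probe set averaged 43.4 ± 12.3 at 3 d and 56.5 ± 13.1 at 6 h, which did not pass (-0.29, adjusted p = 0.313). The third probe set differed by 0.00 in goggled eyes and by -0.02 in open eyes, and 1 more, with a mean of 11.4, was not tested. The INSR probe sets thus disagreed on whether the gene differed between 3 d and 6 h.

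No binding protein passed the threshold in any comparison. IGFBP2, which binds IGF2 and IGF1, read 82.3, 106.5 and 158.0 (lowest, median and highest) in eyes goggled for 3 d, against 68.7, 92.7 and 118.3 in open eyes. At 6 h it read 79.6, 116.2 and 136.6 in goggled eyes, against 80.4, 102.6 and 118.7 in open eyes. It was the only one of the 6 tested genes with a higher mean in goggled eyes at both times, and it was higher in the goggled eye of 5 of 6 chicks at 3 d and 4 of 6 at 6 h. The differences were 0.16 (95% interval -0.15 to 0.48) and 0.12 (-0.19 to 0.43), neither past the threshold. Without the 8 arrays high in stroma markers, 1 of which was the eye at 158.0, the difference at 3 d was -0.01.

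IGFBP3, the main IGF carrier of blood in mammals, read 106.9, 117.2 and 140.0 in eyes goggled for 3 d, against 97.8, 142.8 and 156.2 in open eyes. At 6 h it read 95.2, 132.3 and 167.9 in goggled eyes, against 121.7, 142.8 and 158.3 in open eyes. The goggled eye was the lower in 5 of 6 chicks at 3 d and in 4 of 6 at 6 h. The differences were -0.16 (95% interval -0.39 to 0.08, adjusted p = 0.928) and -0.07 (-0.31 to 0.16, adjusted p = 0.99996) in limma.

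IGFBP5, a binding protein found in extracellular matrix, was near background, with 15 of 24 arrays above it. It ranged from 11.1 to 35.6 in eyes goggled for 3 d and from 15.2 to 48.9 in their open fellows, and from 14.5 to 28.9 in eyes goggled for 6 h and from 18.3 to 36.1 in their open fellows. The differences of -0.20 (95% interval -0.54 to 0.14) at 3 d and -0.08 (-0.43 to 0.26) at 6 h did not pass, and the chicks split 3 to 3 at 3 d.

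Taking the 6 tested genes as a list, none passed the threshold between goggled and open eyes at 3 d, at 6 h, over both times, or in the difference between the times, and none had an unadjusted p under 0.05. Over all probe sets 2 of 26913 passed at 3 d (0.00743%), 0 at 6 h (0%), 2 over both times (0.00743%) and 0 in the difference (0%), with 1448, 639, 1624 and 598 at an unadjusted p under 0.05. The list's median log2 difference was -0.13 at 3 d and -0.02 at 6 h, beside -0.03 and -0.01 over all probe sets. On the log2 scale, the 95% intervals of the 6 genes at 3 d ran from -0.54 (lower end, IGFBP5) to 0.48 (upper end, IGFBP2). That scale understates the change of dim probe sets. These limits therefore do not bound the fold of signal, least of all for IGFBP5, which was near background. With the chick as a block the differences were the same and the lowest adjusted p of any of the 6 genes in a goggle comparison was 0.574.

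**Figure D2:**
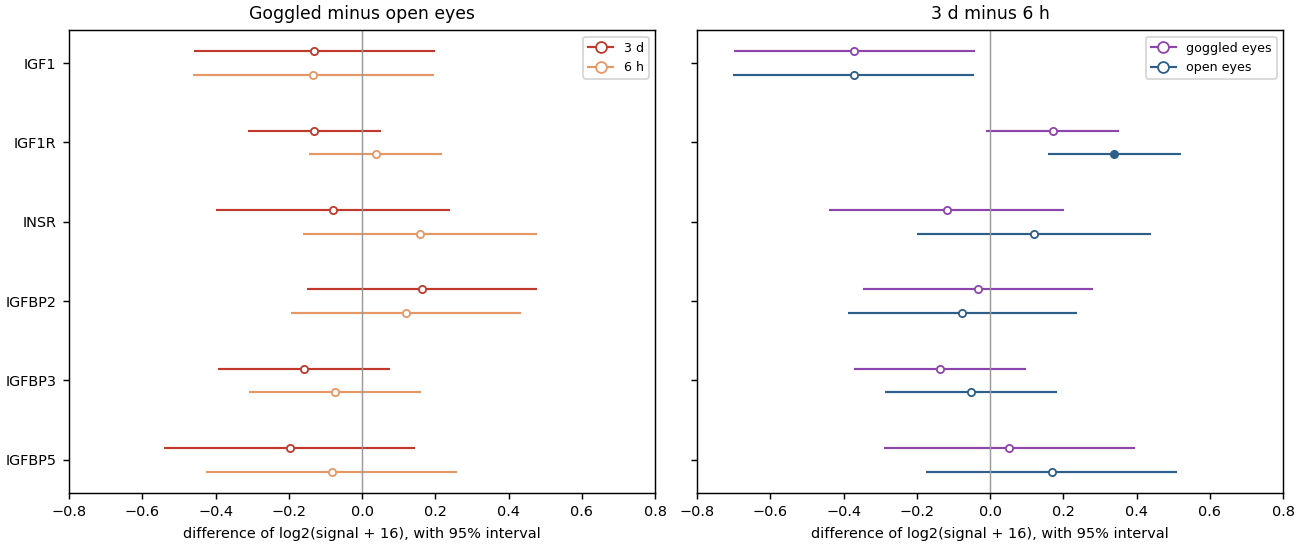
Difference of log2(signal + 16) for the 6 tested genes with 95% intervals from limma; left, goggled minus open eyes at 3 d and 6 h, right, 3 d minus 6 h in goggled and open eyes; filled points passed an adjusted p of 0.05. All 12 goggle intervals span 0, and the filled point is IGF1R in open eyes (0.34).

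The wider pathway was followed through a list of 64 further genes, of which 56 had a probe set and 50 were tested. None passed the threshold between goggled and open eyes at either time, over both times or in the difference, where 1, 2, 4 and 1 of the 50 had an unadjusted p under 0.05 at 3 d, at 6 h, over both times and in the difference. At 3 d, 23 of the 50 had a higher mean in goggled eyes and 27 a lower one, with a median difference of -0.01 against -0.03 over all probe sets. The extremes of each branch at 3 d were small. Among carriers and proteases they were IGFBP1 at 0.23 and INS, the insulin gene itself, at -0.08, and among receptors and the growth hormone axis GHR, the growth hormone receptor, at 0.13 and PTPN1 at -0.35. Among adaptors they were GAB1 at 0.06 and SOS1 at -0.23, in the PI3K and AKT branch the AKT phosphatase PHLPP1 at 0.14 and PIK3R2 at -0.17, and in the TOR branch RICTOR at 0.15 and TSC2 at -0.18. The kinase GSK3A stood at 0.22 and the transcription factor FOXO1 at -0.06, and the mRNA binding proteins IGF2BP3 and IGF2BP2 at 0.06 and -0.01. All of these values are of the brightest probe set. Other tested probe sets stood at -0.16 and -0.32 for GAB1, -0.09 and 0.00 for PHLPP1, and -0.06, -0.17 and -0.27 for RICTOR. They stood at -0.03 for GSK3A, -0.18, -0.05 and -0.14 for SOS1, 0.18 and -0.03 for IGF2BP3, and -0.09 for IGF2BP2.

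PTPN1, the phosphatase that removes phosphate from the insulin receptor, had the largest of these differences at 3 d. Its signal in eyes goggled for 3 d was 44.7, 55.0 and 65.4 (lowest, median and highest), against 66.9, 73.2 and 89.5 in their open fellows. The groups did not overlap, as for 0.275% of all probe sets, so under any pairing the goggled eye was the lower in 6 of 6 chicks. The log2 difference was -0.35 (SE 0.10), with an unadjusted p of 0.00108, but an adjusted p of 0.654 in limma, so it was not called. The median signal of an array averaged 32.6 in eyes goggled for 3 d and 35.7 in their open fellows. Of all probe sets, 58.5% were lower in goggled eyes at 3 d. PTPN1 kept its sign in 11 alternative fits, other scalings among them, and passed in none. In eyes goggled for 6 h PTPN1 read 64.7, 73.8 and 106.4, against 72.2, 81.4 and 82.5 in open eyes, a difference of 0.00 (SE 0.10). The difference between the times had an unadjusted p of 0.0157 and an adjusted p of 0.99992. A larger goggle difference at 6 h belonged to PIK3CB, a catalytic subunit of PI3K named after its values were seen, with 39.4 ± 12.4 in goggled and 67.7 ± 26.7 in open eyes (-0.57, SE 0.18, unadjusted p of 0.00356, adjusted p of 0.99996 in limma). Over both times PIK3CB stood at -0.37 (adjusted p = 0.765) and was lower in the goggled eye of 10 of 12 chicks.

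Between 3 d and 6 h, pathway genes moved in both directions. By their brightest probe sets, 4 of the 50 rose and 5 fell in goggled eyes, where 4.13% of all probe sets rose and 8.56% fell. In open eyes 3 rose and 2 fell, where 2.62% rose and 4.72% fell. The medians of the list were -0.02 in goggled and -0.01 in open eyes, against -0.08 and -0.05 over all probe sets. Over all probe sets the split depended on the scaling. As deposited, 1111 rose and 2303 fell in goggled eyes, whereas 1082 and 1102 did after quantile normalization and 2290 and 1100 after centring on the median. In open eyes the counts were 705 and 1270 as deposited, 822 and 903 after quantile normalization, and 1381 and 719 after centring. Among the 50 genes, centring made these 8 that rose and 3 that fell in goggled eyes, and 5 and 2 in open eyes. As deposited, some genes not counted had a dimmer probe set called lower at 3 d. These were RICTOR (-0.84 in goggled, -0.67 in open eyes), GAB1 (-0.65) and IGF2BP2 (-0.41) in goggled eyes, and IGF2BP3 (-0.36) in open eyes. In the same comparisons the brightest probe sets stood at -0.21 and -0.27 for RICTOR, -0.17 for GAB1, -0.12 for IGF2BP2 and 0.11 for IGF2BP3. Another GAB1 probe set stood at 0.25 in goggled eyes.

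Among the carriers and proteases and among receptors and the growth hormone axis, the brightest probe sets of the called genes were lower at 3 d. Among adaptors, IRS2 was called lower in goggled eyes, and SOS1, given further below, was called higher in open eyes. IRS2, the second insulin receptor substrate, averaged 479.3 ± 65.0 at 3 d and 676.9 ± 120.5 at 6 h in goggled eyes (-0.48, SE 0.12, limma adjusted p = 0.0104). In open eyes it averaged 479.5 ± 65.9 and 590.4 ± 55.2 and did not pass (-0.30, adjusted p = 0.122). The other tested probe sets of the symbol IRS2, annotated to another gene ID, stood at -0.16 and -0.20 in goggled and 0.25 and -0.33 in open eyes, none called. Averaged over the probe sets of both gene IDs, IRS2 did not pass in goggled eyes either (-0.28, adjusted p = 0.0568). The receptor phosphatase PTPRF averaged 707.9 ± 148.7 at 3 d and 1038.3 ± 138.7 at 6 h in goggled eyes (-0.56, adjusted p = 0.0101), and 738.2 ± 100.5 and 876.1 ± 153.4 in open eyes (-0.23, adjusted p = 0.317). The other tested PTPRF probe sets stood at 0.09 and 0.04 in goggled and 0.22 and 0.39 in open eyes, of opposite sign and not called, and the mean over all of them was -0.14 (adjusted p = 0.536) in goggled eyes. PTPN1 fell in goggled eyes as well (-0.42, adjusted p = 0.00673), in a comparison that shares its 3 d eyes with the goggle comparison above. After quantile normalization it did not pass (-0.26, adjusted p = 0.116). IGFALS, which joins the circulating IGF complex, ranged from 7.5 to 20.5 in eyes goggled for 3 d, all under background, against 20.2 to 39.8 in eyes goggled for 6 h. In open eyes it ranged from 3.4 to 27.3 at 3 d, against 17.4 to 39.9 at 6 h. It passed in both (adjusted p of 0.0201 in goggled and 0.0260 in open eyes in limma), and no fold is given for a gene this close to background. Its call was lost in goggled eyes after quantile normalization (adjusted p = 0.0668) and in open eyes in a fit to those eyes alone (adjusted p = 0.0766).

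The other called genes, SOS1 among them, went in both directions. PHLPP1 averaged 623.6 ± 34.0 at 3 d and 460.8 ± 30.4 at 6 h in goggled eyes (0.42, SE 0.08, limma adjusted p = 0.00136) and 566.8 ± 41.1 and 463.9 ± 53.3 in open eyes (0.28, adjusted p = 0.0268). A second PHLPP1 probe set rose as well, by 0.31 in goggled and 0.32 in open eyes, and the remaining one stood at -0.01 and 0.01. The mean over PHLPP1 probe sets did not pass (0.24, adjusted p = 0.0511, in goggled and 0.21, adjusted p = 0.135, in open eyes). In a fit to the open eyes alone the PHLPP1 call was lost as well (adjusted p = 0.1105). MTOR, the kinase of the TOR complexes, averaged 229.0 ± 34.7 at 3 d and 174.6 ± 11.8 at 6 h in goggled eyes (0.35, adjusted p = 0.0151), and 222.1 ± 18.9 and 189.5 ± 14.1 in open eyes (0.21, adjusted p = 0.164). The other tested MTOR probe sets stood at -0.16 and -0.08 in goggled eyes, and the mean over all of them at 0.03 (adjusted p = 0.867). EIF4E, the cap-binding factor of translation, averaged 405.2 ± 29.6 at 3 d and 526.4 ± 39.7 at 6 h in goggled eyes (-0.36, adjusted p = 0.00708) and 386.6 ± 46.6 and 527.5 ± 40.8 in open eyes (-0.44, adjusted p = 0.00308). The times did not overlap in either kind of eye, as for 6.1% of all probe sets in goggled and 3.42% in open eyes. The other EIF4E probe sets were not called (-0.14 and -0.01 in goggled and -0.30 and -0.13 in open eyes). The call was lost for the mean over probe sets (-0.17, adjusted p = 0.356, in goggled and -0.29, adjusted p = 0.148, in open eyes) and in goggled eyes after median centring (-0.25, adjusted p = 0.0730). Its inhibitor EIF4EBP1 averaged 954.7 ± 53.2 at 3 d and 817.8 ± 44.9 at 6 h in goggled eyes (0.22, adjusted p = 0.0335). In open eyes EIF4EBP1 did not pass (0.12, adjusted p = 0.275). Its call in goggled eyes was lost after quantile normalization (0.17, adjusted p = 0.111) and in a fit to those eyes alone (adjusted p = 0.0709). The Ras activator SOS1 rose in open eyes (0.53, adjusted p = 0.0276), with 84.95 ± 10.8 at 3 d and 54.6 ± 11.2 at 6 h. The other tested SOS1 probe sets stood at -0.17, 0.41 and -0.07, none called, and the mean over all of them at 0.17 (adjusted p = 0.453). In goggled eyes the brightest SOS1 probe set did not pass (0.37, adjusted p = 0.0933).

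Several of these calls were lost when single arrays were left out. In goggled eyes, EIF4EBP1 lost its call without any one of replicates 2, 3, 4 and 5 at 3 d or 1, 2, 4 and 5 at 6 h (adjusted p up to 0.0677). In open eyes, IGFALS lost it without replicate 4 or 5 at 3 d or 2, 5 or 6 at 6 h (up to 0.0663), SOS1 without 3 or 6 at 3 d or 1 or 3 at 6 h (up to 0.0591), and PHLPP1 without 1 or 3 at 3 d or 1, 2 or 6 at 6 h (up to 0.0651). Without all 8 arrays high in stroma markers, 2 of the 50 pathway genes passed in goggled eyes (PIK3R1 and PHLPP1) and 0 in open eyes, while 270 and 197 of all probe sets passed with the 16 arrays left. The differences in goggled eyes were then -0.57 for PTPRF, -0.48 for IRS2, -0.34 for PTPN1, 0.32 for MTOR, 0.24 for EIF4EBP1 and -0.42 for EIF4E. In open eyes they were 0.49 for SOS1, 0.42 for PIK3R1, 0.21 for PHLPP1 and -0.41 for EIF4E. IGFALS stayed lower at 3 d in both kinds of eye, and no size is given for it so close to background.

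**Figure D3:**
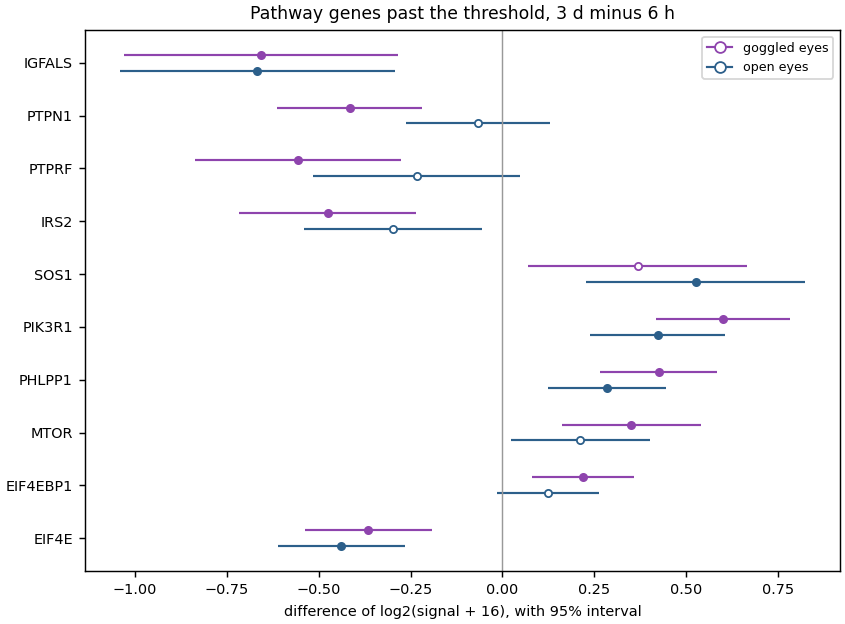
Difference of log2(signal + 16) between 3 d and 6 h, with 95% limma intervals, for the 10 pathway genes whose brightest probe set was called in goggled or open eyes (filled, adjusted p under 0.05). IGFALS, PIK3R1, PHLPP1 and EIF4E passed in both kinds of eye, and each of the 10 has the same sign in both. IGFALS lies close to background, so the size of its difference is not interpreted.

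PIK3R1, the regulatory subunit of PI3K that docks on IRS proteins, differed most in goggled eyes among the genes that rose, but its probe sets opposed each other. The brightest read 1737.6, 1994.2 and 2505.6 (lowest, median and highest) in eyes goggled for 3 d, against 1157.3, 1330.4 and 1478.6 in eyes goggled for 6 h. In open eyes it read 1894.2, 1991.1 and 2302.2 at 3 d, against 1331.1, 1499.4 and 1730.5 at 6 h. The times did not overlap in either kind of eye, as for 6.1% of all probe sets in goggled and 3.42% in open eyes. The difference was 0.60 (SE 0.09, limma adjusted p = 2.43e-04) in goggled and 0.42 (SE 0.09, adjusted p = 0.00565) in open eyes. The third probe set went the other way: it averaged 80.6 ± 38.1 at 3 d and 163.0 ± 31.7 at 6 h in goggled eyes (-0.95, adjusted p = 0.00652), and 69.4 ± 15.7 and 169.7 ± 71.4 in open eyes (-1.06, adjusted p = 0.00475). The second, at 1274.5 ± 183.3 and 1446.5 ± 127.2 in goggled eyes, did not pass (-0.19, adjusted p = 0.243), nor did it in open eyes (-0.26, adjusted p = 0.131). Averaged over its probe sets, PIK3R1 was lower at 3 d by -0.18 in goggled and -0.30 in open eyes and did not pass. A direction for the gene as a whole is therefore not given.

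**Figure D4:**
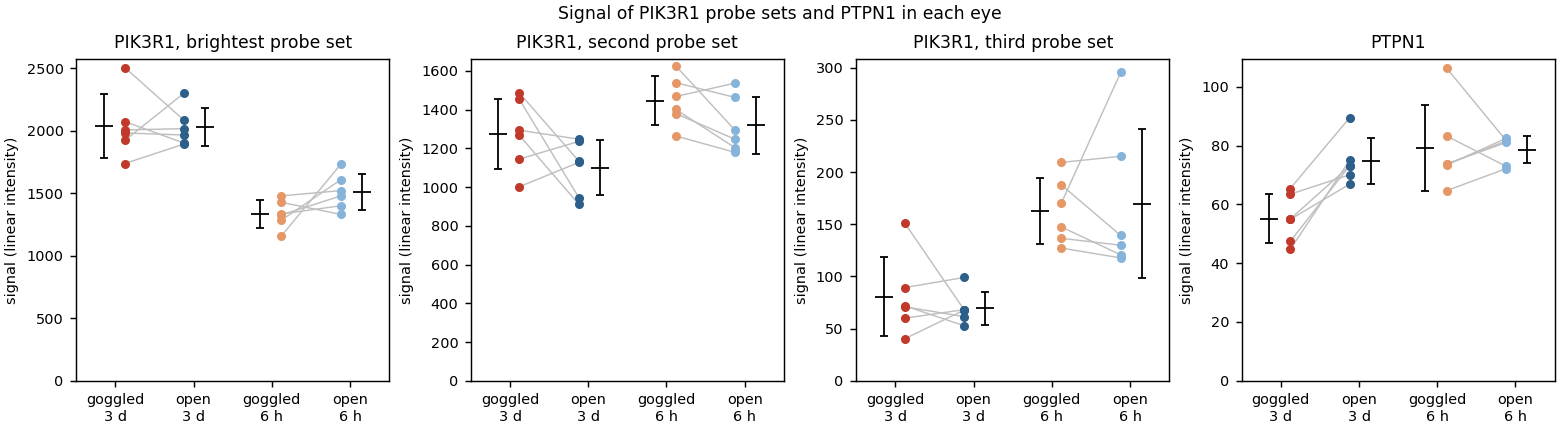
Signal (linear intensity) of 3 PIK3R1 probe sets and of PTPN1 in each eye; points are arrays, grey lines join eyes taken as 1 chick, and bars are mean ± SD (n = 6). The brightest PIK3R1 probe set is higher at 3 d and the third is lower at 3 d, and the 6 eyes goggled for 3 d (44.7 to 65.4) lie under their 6 open fellows (66.9 to 89.5) for PTPN1.

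Genes whose signal followed each member most closely were ranked by the Pearson correlation of log2 values over the 24 arrays after the group means were taken off, as a description without a test. INSR had the closest, CLIP2 (0.91), HDLBP (0.91) and YTHDF2 (0.89), and these were 0.90, 0.90 and 0.86 without the 2 most extreme arrays. For IGF1 they were GPR85 (0.83), SGK1 (0.80) and TIMM23B (0.78), and for IGF1R TADA2B (0.74), RNPEP (0.72) and NIN (0.72). Without the 2 most extreme arrays the values were 0.74, 0.71 and 0.64 for IGF1, and 0.66, 0.74 and 0.64 for IGF1R. IGFBP2 was followed by EMC1 (0.76), HYOU1 (0.74) and SPINT1 (0.73), and IGFBP3 by SLC41A1 (0.83), XXYLT1 (0.82) and RAD51D (0.80). IGFBP5 was followed by UBQLN4 (0.82), CADM3 (0.81) and MMS19 (0.80). With the 2 most extreme arrays left out, these were 0.74, 0.67 and 0.70 for IGFBP2. They were 0.76, 0.69 and 0.74 for IGFBP3, and 0.73, 0.72 and 0.73 for IGFBP5. The mean signal of EMC1 was 16.7, under background. All points share the scaling of their array, and the same 24 arrays served every gene.

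Against the stroma markers, the signals of all 7 measured genes overlapped between the 8 arrays high in them and the other 16. The median signal of IGF1 was 52.3 on the 8 arrays and 49.1 on the 16. For the receptors it was 474 and 499.6 (IGF1R) and 248.6 and 211.5 (INSR), and for the binding proteins 108 and 99.8 (IGFBP2), 139 and 126 (IGFBP3) and 26.8 and 24.5 (IGFBP5). The array of highest stroma mean, an eye goggled for 3 d (replicate 3), gave the highest value of its group for IGF1R, INSR, IGFBP2 and IGFBP3. IGFBP7, a binding protein related to the IGFBPs and plentiful in vessels, was singled out after its values were seen: its median was 1477 on the 8 arrays (694.0 to 2888) and 709.7 on the other 16 (403.3 to 1221).

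**Figure D5:**
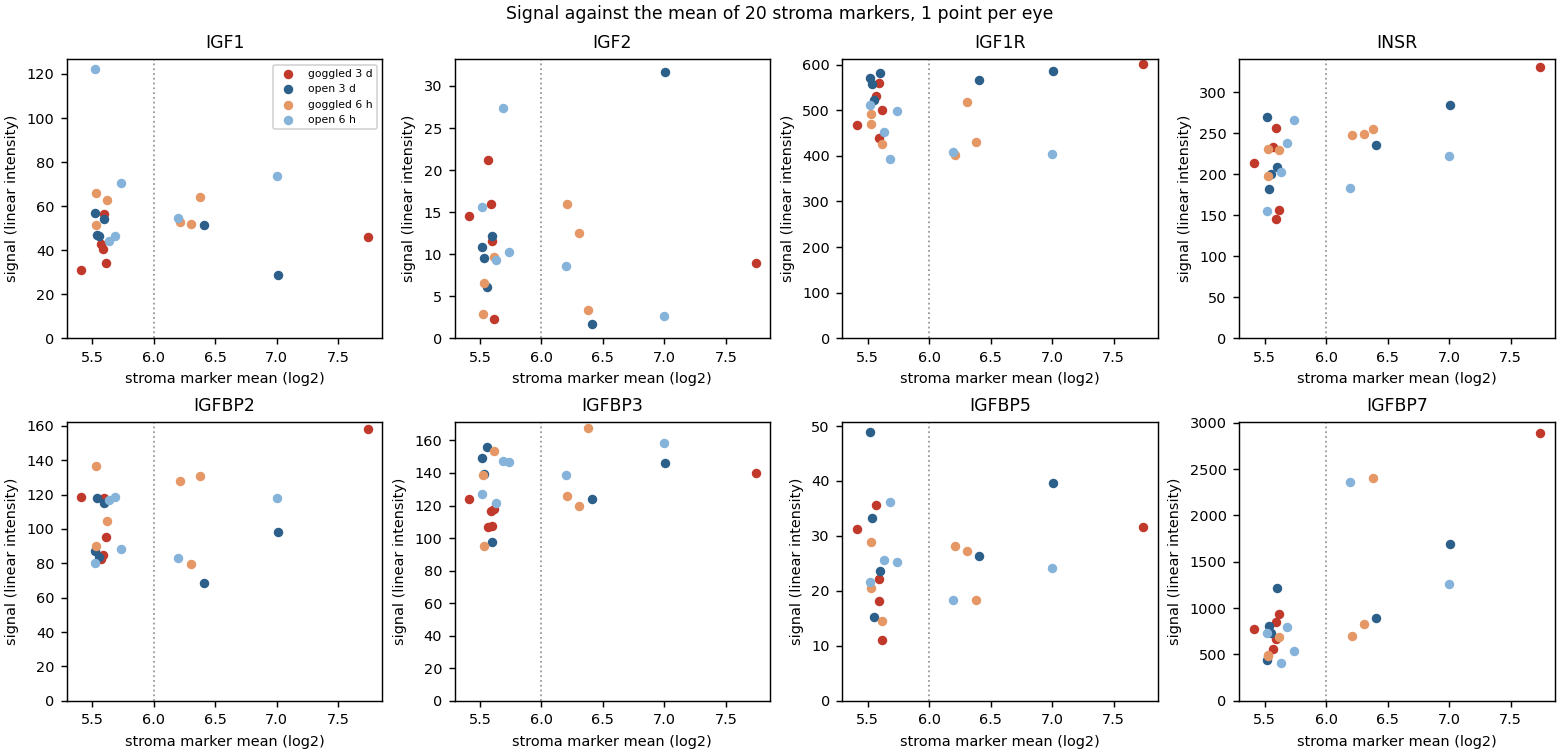
Signal (linear intensity) of the 7 measured genes and IGFBP7 against the mean log2 value of 20 stroma markers, 1 point per eye; the dotted line at 6 separates the 8 arrays set apart. IGFBP7 is highest on arrays to the right of the line (up to 2888), while IGF1R reads 402.3 to 602.0 to its right and 393.9 to 582.5 to its left.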

How the data were processed

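The deposited table gives a linear intensity for each probe set on each array, with a 2% trimmed mean of 150.03 on all arrays. The submitters' processing notes name GCOS 1.4 and RMA but not which of them produced these intensities. Each array received labelled material from 3 µg of total RNA, per the labels' protocols, and at each time 6 of 8 goggled chicks were put on arrays. C was read as the open and E as the goggled eye.

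After removal of 96 Affymetrix controls, log2 was taken of the deposited intensity plus 16, and probe sets with a mean at or above the 30th percentile of 38439 (14.4) were tested. Means of 4 groups were fitted with limma 3.58.1 in R 4.3.3 (20 residual degrees of freedom, eBayes). Gene names came from the platform annotation, updated by gene ID from RefSeq (GRCg7b, names only). The members and lists were chosen with earlier results of these data known. Named are all members, up to 4 called genes per branch and direction, the extremes of each branch at 3 d, and the 3 genes most like each member. Of the pathway list, 8 genes were not analysed here, and PAPPA2, STC1, SHC1, INPP5D, INPPL1 and IGF2BP1 were too dim to be tested.

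The labels give both eyes of a chick but not which arrays pair. Arrays of equal number were taken as a chick, since the deviations from the group means correlated at 0.101 to 0.444 at 3 d and 0.222 to 0.424 at 6 h for every pair, above the set minimum of 0.1, against means of -0.05 and -0.07 for other arrays. The goggled eye of pair 3 at 3 d, at 0.101, correlated more closely with another open eye (0.289), so that pair is the least sure. The fits were tested on simulated data for the goggle comparison at 3 d, where 50 of 26913 probe sets were altered at every size. In it limma called 4% at a log2 change of 0.25, 38% at 0.5, 64% at 0.75 and 90% at 1. With the chick as a block it called 0%, 24%, 56% and 84%. Of the probe sets left unaltered, 9 were called without the block and 5 with it. The adjusted p depends on how many probe sets differ. Far more probe sets were called in the simulated data than the 2 of 26913 in the real comparison at 3 d. The shares called can therefore overstate what could be called there. Eyes were drawn independently, so the simulated data held no likeness between the eyes of a chick. The number of arrays limits the precision. Alternatives were the chick as a block, other offsets and scalings, no filter, trended robust variances, only the groups compared, the stroma mean as a covariate, the mean over probe sets and leaving out each array. Leaving out the arrays high in stroma markers was chosen after seeing the data. Plotting used matplotlib 3.10.9 in Python 3.11.15.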

Additional observations from a re-analysis of the deposited data

Results flagged for a closer look

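The brightest IGF2 probe set read 31.7 in the open fellow eye of replicate 2 at 3 d. It stood apart from the other 5 open eyes at 3 d, whose values ran from 1.7 to 12.1. The gap to the nearest was 0.653 of the whole range, above the limit of 0.625 for 6 samples. Of 28 gene and group combinations checked, this was the 1 so marked, and chance marks about 1 in 20. The same array was among the 8 high in stroma markers, at 7.01, and IGF2 on the other 7 of them ranged from 1.7 to 16.0.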

How the results depend on the processing

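Between goggled and open eyes, 0 of 252 values of the 6 tested genes under the alternatives and 0 of 576 with 1 array left out passed the threshold. With the replicate block, the chick as a fixed term for goggle comparisons (lowest adjusted p of 0.574) and a random one for the times (correlation 0.263), no call changed, and IGF1R in open eyes kept a log2 difference of 0.34 (adjusted p = 0.0164). The count of the 6 genes called between 3 d and 6 h in goggled eyes was 0, and 1 after median centring (IGF1R, 0.28) and 1 in a fit to those groups alone (IGF1). In open eyes it was 1, and 0 in a fit to those groups alone and 0 without the arrays high in stroma markers (0 to 1 with 1 array left out). Pathway calls in open eyes were 5, and 3 in a fit to those groups alone, 3 for the mean over probe sets and 0 without the arrays high in stroma markers (3 to 5 with 1 array left out). In goggled eyes they were 9, and 2 without the arrays high in stroma markers. The mean over probe sets called 6 there, but not PTPRF, IRS2, PIK3R1, PHLPP1, MTOR and EIF4E, which are 6 of the 9. Median centring moved the median of all probe sets between the times in goggled eyes to 0.03 from a deposited -0.08. Signs that turned belonged to differences that passed in no setting, except PIK3R1 over all its probe sets (-0.18 in goggled and -0.30 in open eyes). For IGF1 the difference between the goggle effects turned to -0.021 with an offset of 1 and to -0.14 without the arrays high in stroma markers. Between the times, IGFBP2 in goggled eyes turned to 0.047 after quantile normalization and 0.079 after centring, and in open eyes IGFBP2 turned to 0.00287 and IGFBP3 to 0.026 after centring. The mean over probe sets turned INSR to -0.028 over both times and -0.063 between the times in open eyes. Without the arrays high in stroma markers, IGFBP2 turned to -0.015 at 3 d, IGF1R to -0.00021 at 6 h and INSR to -0.033 over both times, the differences between the goggle effects turned to -0.13 for IGFBP2 and 0.00874 for IGFBP5, and IGFBP2 turned to 0.000413 between the times in open eyes. With 1 array left out, signs turned for INSR at 3 d (-0.20 to 0.023) and over both times (-0.020 to 0.090), for IGF1 (-0.22 to 0.021) and IGFBP3 (-0.14 to 0.00684) at 6 h, for the difference between the goggle effects of IGF1 (-0.15 to 0.088) and IGFBP2 (-0.057 to 0.11), and between the times for IGFBP2 (-0.13 to 0.032) and IGFBP5 (-0.021 to 0.17) in goggled and IGFBP3 (-0.092 to 0.028) in open eyes. The cause was not tested. Over all probe sets, counts of calls moved by over 1.5 times between goggled and open eyes at 3 d (2, and 1 after quantile normalization, 1 to 3 with 1 array left out), at 6 h (0, and 0 to 1 with 1 array left out), over both times (2, and 4 to 5 with an offset of 64, the stroma mean as a covariate or the mean over probe sets, and 6 without replicate 3 of the eyes goggled for 3 d), and between the times in goggled eyes (3414, and 2184 after quantile normalization, 1772 for the mean over probe sets) and in open eyes (1975, and 895 in a fit to those groups alone, 906 for the mean over probe sets). Signal near background limits what can be said of IGF2, IGFBP5 and IGFALS.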
